A study of Rattus norvegicus with 18 samples.

Results

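The methionine cycle and the methyl transfers that draw on it were followed through 8 genes in rat liver: Mat1a, Ahcy, Bhmt, Gnmt, Pemt, Inmt, Cbs and Cth. They were found by gene symbol in a table of 33657 genes, and 8 of 8 symbols were present once. Liver RNA of male rats aged 18 weeks had been sequenced in 18 libraries, 3 in each of 6 groups. One group was given orlistat, a lipase inhibitor used against obesity, as the positive control. Plantain was fed to another 3 groups, at doses that the labels name low, medium and high without an amount. The obese control and the normal control were given water. The treatment labels name obesity for the obese control only, so that the treated groups were obese as well is an inference. The sources used here give neither the strain nor the way in which obesity was produced nor the length of treatment. Nothing in the labels ties the 3 libraries of a group to separate animals, so the spread behind each p-value is that between libraries and may be technical.

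Mat1a makes S-adenosylmethionine, the methyl donor of the cell, from methionine in hepatocytes. Methyltransferases such as Gnmt, Pemt and Inmt pass its methyl group on and leave S-adenosylhomocysteine, which Ahcy splits into homocysteine and adenosine. Homocysteine is either methylated back to methionine, with betaine as the donor in the reaction of Bhmt, or led out of the cycle by Cbs and Cth towards cysteine. The liver is the main organ of this cycle.

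The libraries held 16.6 to 26.2 M reads, where M stands for mega, recovered as whole numbers from the deposited FPKM, a level scaled to gene length and library total that can be compared between genes. A gene was tested if 3 or more libraries had 1 FPKM or more, which 11945 genes met, and 7 of the 8 members were among them. Gnmt did not meet it. Bhmt and Inmt had been chosen in part by their FPKM pattern over these same groups, so their values are given as a description with no test. The other 5, Mat1a, Ahcy, Cbs, Cth and Pemt, were tested in 1 limma fit on log2(FPKM + 1) over all 6 groups, with p adjusted over the 11945 genes. Log2 differences below are on that scale and are given ± their standard error, while levels are in FPKM with the mean ± SD of 3 libraries. Differences between groups were frequent in the table as a whole, and a share of members that passed the test has to be read against that. In the liver tissue the 7 hepatocyte markers found in the table, among them albumin, summed to between 81200 and 102000 FPKM in a library. Of the 4 fat cell markers, Lep was at 0 in 18 libraries, Plin1 in 17 and Adipoq in 15. Cfd, the other marker of that list, was detected in every library, at 6.32 to 17.7 FPKM. The 18 pairs of replicates differed by more than sampling noise, with a chi-square per degree of freedom over the genes of 2.99 to 6.18, where sampling noise alone gives about 1, and a median chi-square of 0.675 to 1.07, against 0.455 for sampling noise alone. Rescaling to TPM, in which every library has the same sum, moved the median log2 difference of all genes to -0.11 for the obese control against the normal control, to 0.14 for orlistat, 0.05 for the low dose, 0.08 for the medium dose and 0.15 for the high dose, each against the obese control. It lowered the share of calls that were higher in the obese control than in the normal control to 30.2%, against 48.5% on the deposited scale. For orlistat against the obese control that share was 76.1% as TPM, against 50.6% as deposited, and for the low, medium and high dose it was 67.3%, 72.2% and 77.8% as TPM, against 55.3%, 51.9% and 51.3% as deposited.

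By mean level over the 18 libraries, Mat1a ranked 69, Bhmt 78 and Ahcy 118 of the 33657 genes. Pemt ranked 321, Cth 423 and Cbs 660, and Inmt ranked 3060. These 7 genes were thus among the more abundant transcripts of the table, while Gnmt stood at rank 16780. Of the 5 tested members, 4 passed the test in the obese control against the normal control (Cbs and Cth higher, Mat1a and Ahcy lower), where 55.1% of all genes passed, 26.7% higher and 28.4% lower. With orlistat against the obese control 5 of 5 passed (Mat1a, Ahcy and Cbs higher, Cth and Pemt lower), beside 51.8% of all genes, 26.2% higher and 25.6% lower. At the low dose 3 passed, Mat1a, Ahcy and Cth, all higher, beside 33% of all genes, 18.3% higher and 14.8% lower. At the medium dose 4 passed (Mat1a and Ahcy higher, Cth and Pemt lower), beside 41.9% of all genes, 21.8% higher and 20.1% lower. The same genes passed in the same directions at the high dose, beside 51.9% of all genes, 26.6% higher and 25.3% lower. Mat1a and Ahcy are the 2 members that passed in all 5 of these comparisons. For 5 of 5 tested members no library of the obese control overlapped the normal control, as for 62.5% of all genes. Against the obese control the count was 4 with orlistat (58.2% of all genes), 3 at the low dose (44.8%), 4 at the medium dose (49.2%) and 4 at the high dose (57.8%). Between the 3 doses 4 of 5 members were unequal by limma's F-test, all but Cbs, beside 38.4% of all genes. The 4 treatment comparisons share the 3 obese control libraries, so the values of each are given side by side and not as independent results.

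**Figure D1:**
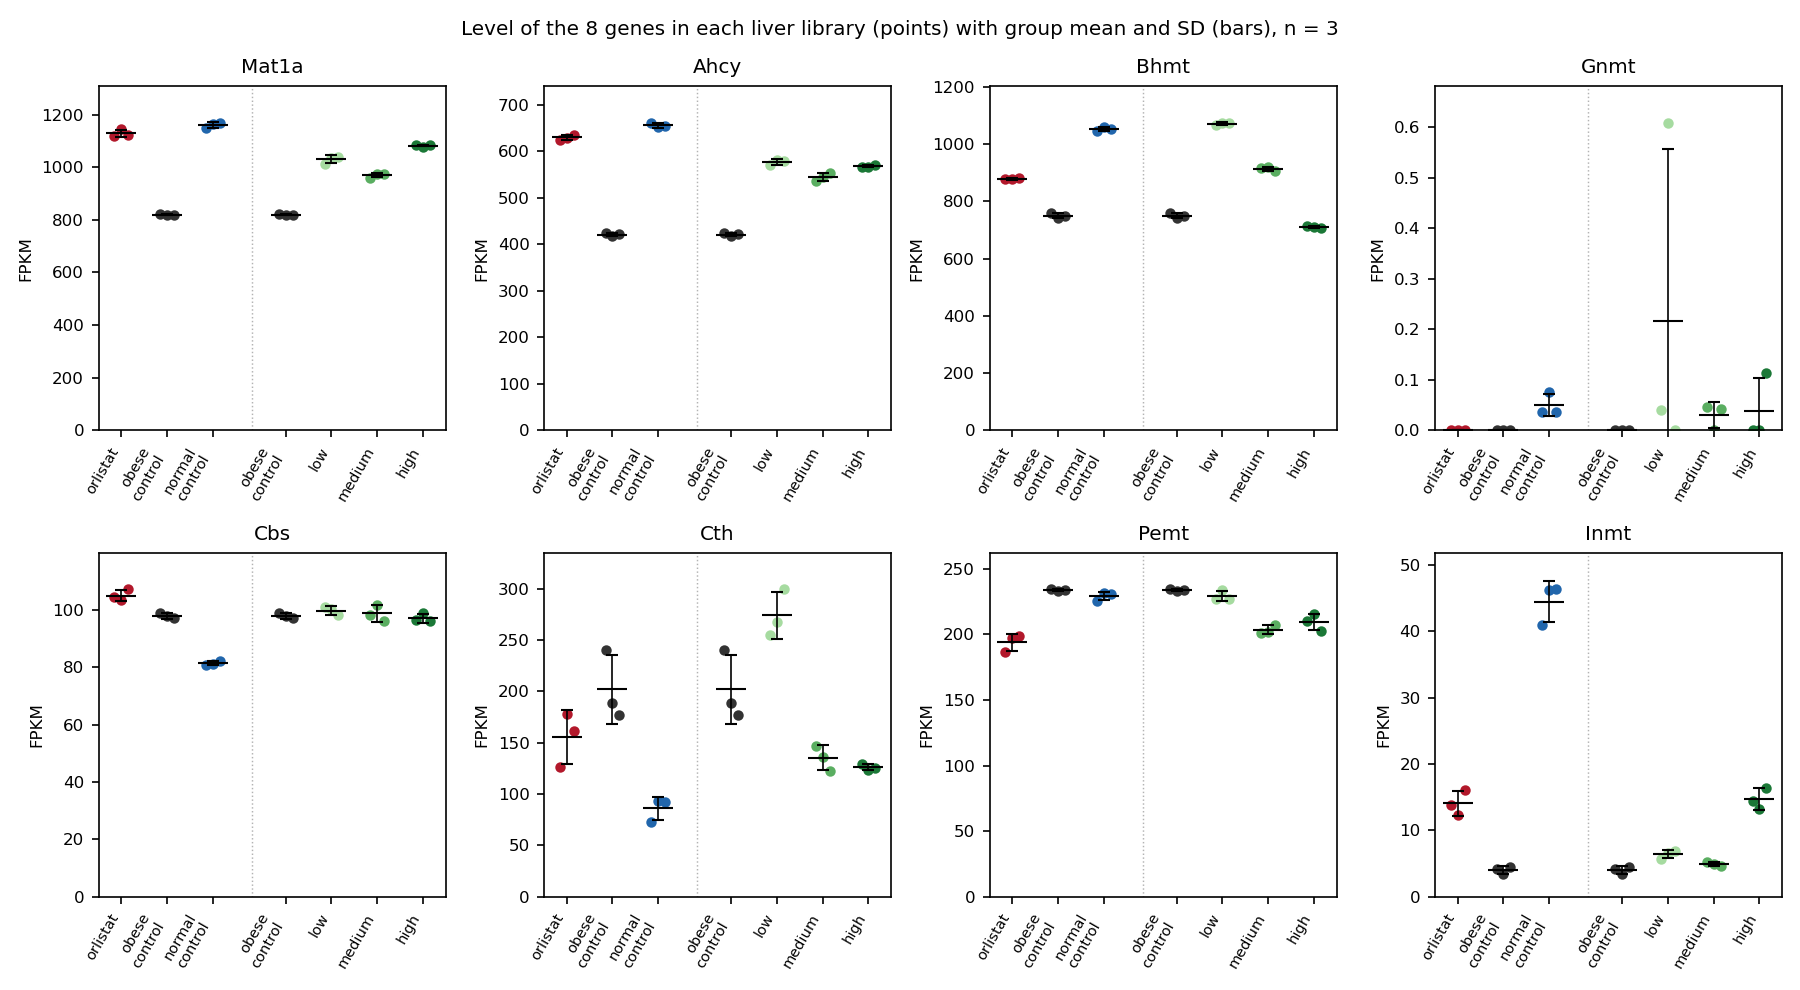
FPKM of the members in every library, with a point per library and bars for the mean ± SD of 3 libraries; orlistat, the obese control and the normal control stand on the left of each panel, and the obese control with the low, medium and high plantain dose on the right. Mat1a and Ahcy are lowest in the obese control, and the Cth points of a group lie farther apart than those of Mat1a. Bhmt is highest at the low dose on this scale, while the normal control is higher as TPM, with quantile normalization and with voom on the recovered reads.

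Mat1a, the entry step of the cycle, had a lower transcript level in the obese control than in every other group. Mat1a (ENSRNOG00000011351, chromosome 16, 18690246 to 18709133, plus strand, in coordinates of the file, whose build is not named) had 822.7, 817.7 and 820.5 FPKM in the obese control, against 1149, 1164 and 1169 FPKM in the normal control. The 2 groups did not overlap, and the difference was -0.50 ± 0.01 (limma adjusted p = 4.93e-14). With orlistat Mat1a had 1121, 1145 and 1124 FPKM, all above every obese control library, a difference of 0.46 ± 0.01 (adjusted p = 3.94e-13). Plantain gave 1013, 1037 and 1041 FPKM at the low dose, 960.2, 974.1 and 973.7 FPKM at the medium dose and 1083, 1079 and 1085 FPKM at the high dose. All 9 plantain libraries lay above the obese control and below the normal control. The differences from the obese control were 0.33 at the low, 0.24 at the medium and 0.40 at the high dose, each ± 0.01, with adjusted p-values of 4.56e-11, 1.02e-09 and 2.12e-12. The middle dose thus had the smallest difference, and the 3 doses were unequal by limma's F-test (adjusted p = 7e-07). High against medium dose gave 0.16 ± 0.01 (adjusted p = 5.38e-07) and medium against low dose gave -0.09 ± 0.01 (adjusted p = 0.000153). Orlistat stood 0.04 below the normal control on the log2 scale (-0.04 ± 0.01, adjusted p = 0.0278), a direction that turned to 0.01 as TPM and to 0.001 with voom on the recovered reads.

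Ahcy, which removes S-adenosylhomocysteine, moved with Mat1a. Ahcy (ENSRNOG00000017777, chromosome 3, 150587833 to 150603082, minus strand) had 424.6, 417.2 and 421.5 FPKM in the obese control, against 661.3, 652.3 and 654.0 FPKM in the normal control, a difference of -0.64 ± 0.01 (adjusted p = 6.57e-15). With orlistat it had 625.1, 629.2 and 635.9 FPKM, which exceeded every obese control library, a difference of 0.58 ± 0.01 (adjusted p = 8.41e-14). The values were 571.0, 582.1 and 578.7 FPKM at the low dose, 536.9, 545.0 and 554.1 FPKM at the medium dose and 565.6, 567.4 and 570.6 FPKM at the high dose. All of them lay between the obese control and the normal control with no overlap. The differences from the obese control were 0.45, 0.37 and 0.43 from low to high dose, each ± 0.01, with adjusted p-values of 2.68e-12, 1.49e-11 and 2e-12. The doses were unequal by the F-test (adjusted p = 0.000814), with high against low dose at -0.02 ± 0.01 (adjusted p = 0.225), a sign that turned as TPM, with quantile normalization and with voom. Each treated group stayed below the normal control, by -0.06 with orlistat, -0.18 at the low, -0.27 at the medium and -0.21 at the high dose, each ± 0.01 (adjusted p at most 0.00369). As TPM orlistat differed from the normal control by -0.01, with 1172 ± 26 TPM with orlistat, against 1182 ± 21 TPM in the normal control, a difference within the spread. The differences of Ahcy from the obese control exceeded those of Mat1a in size in all 5 comparisons, and the ratio of Mat1a to Ahcy FPKM was accordingly 1.95 ± 0.01 in the obese control, against 1.77 ± 0.03 in the normal control. It was 1.79 ± 0.03 with orlistat, 1.78 ± 0.01 at the low dose, 1.78 ± 0.02 at the medium dose and 1.91 ± 0.01 at the high dose (n = 3 each). A ratio within a library does not depend on a single scaling factor, and it shows unequal differences of the 2 genes and not which of them differed. In the same libraries the 10 listed markers of periportal hepatocytes, among them Cps1 and Arg1, moved similarly. Of these, 7 were lower and 2 higher in the obese control than in the normal control. Against the obese control 8 rose and 1 fell with orlistat, and 6 and 1 at the low dose. At the medium dose 6 rose and 3 fell, and at the high dose 7 and 1. Their summed level was 3780 to 3860 FPKM in the obese control, against 4860 to 4870 FPKM in the normal control. It was 4820 to 4830 FPKM with orlistat, 4330 to 4360 FPKM at the low dose, 3880 to 3910 FPKM at the medium dose and 4470 to 4500 FPKM at the high dose. The summed pericentral markers were also lowest in the obese control (1640 to 1650 FPKM, against 1910 to 1930 FPKM in the normal control). They had 2330 to 2370 FPKM with orlistat, and 1890 to 1930, 1730 to 1820 and 1880 to 1890 FPKM from low to high dose. Cyp2e1, at 738 to 1410 FPKM over the libraries, was the most abundant pericentral marker and weighs most in that sum. Of these 10 genes, 2 were higher and 4 lower in the obese control than in the normal control. With orlistat 4 rose and 4 fell against the obese control. The general hepatocyte markers went the other way on the deposited scale. In the obese control 6 of 7 were higher than in the normal control, and with orlistat 7 of 7 were lower than in the obese control. With voom on the recovered reads the first comparison had 6 higher and 0 lower, and as TPM 5 and 1. For orlistat voom gave 0 higher and 6 lower, and TPM 2 and 4. Quantile normalization left 2 higher and 1 lower, and 1 higher and 1 lower. It gives genes of equal rank the same value in every library, so it can say little of such abundant genes. Of 7 endothelial markers, 5 were higher in the obese control than in the normal control, and 6 rose in each of the 4 treated groups against the obese control, 1 more falling with orlistat. Mitochondrial transcripts took a share of reads of 8.11% ± 0.26 in the obese control, against 6.45% ± 0.23 in the normal control. It was 5.73% ± 0.23 with orlistat, 6.92% ± 0.33 at the low dose, 6.52% ± 0.37 at the medium dose and 4.64% ± 0.06 at the high dose (SD, n = 3 each). The part of these marker groups or of the mitochondrial share in the values of Mat1a and Ahcy was not tested, and in whole tissue fewer cells of a type and less RNA per cell cannot be told apart.

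Mat1a, Ahcy and Inmt took nearly the same order over the groups on the deposited scale, while Bhmt took another. The 250 bases before the start of these 4 genes are therefore shown, 5′ to 3′ on the gene's strand. They are RefSeq sequences of the rat build GRCr8, chr16:17016918-17017167 on the plus strand for Mat1a, and chr3:164044563-164044812, chr2:26614430-26614679 and chr4:85652756-85653005 on the minus strand for Ahcy, Bhmt and Inmt. Capitals mark matches to 4 motifs searched on both strands, which are the letters TATAAA for the TATA box, the letters GGGCGG for the GC box, the letters CACGTG for the E-box and the letters that name the CCAAT box.
Mat1a: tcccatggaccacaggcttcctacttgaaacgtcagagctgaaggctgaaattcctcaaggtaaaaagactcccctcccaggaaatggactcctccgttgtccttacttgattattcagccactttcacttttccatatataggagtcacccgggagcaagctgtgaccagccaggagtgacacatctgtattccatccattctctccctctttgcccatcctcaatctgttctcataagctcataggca
Ahcy: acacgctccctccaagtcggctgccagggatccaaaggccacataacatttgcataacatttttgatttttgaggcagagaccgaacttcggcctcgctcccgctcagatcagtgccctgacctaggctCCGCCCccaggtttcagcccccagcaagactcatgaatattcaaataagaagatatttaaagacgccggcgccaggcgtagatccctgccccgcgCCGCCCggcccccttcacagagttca
Bhmt: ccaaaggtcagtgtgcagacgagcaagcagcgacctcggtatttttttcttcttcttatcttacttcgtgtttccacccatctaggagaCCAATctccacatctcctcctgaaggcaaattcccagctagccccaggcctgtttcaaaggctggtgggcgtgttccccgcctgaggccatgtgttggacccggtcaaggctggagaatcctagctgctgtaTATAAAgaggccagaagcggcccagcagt
Inmt: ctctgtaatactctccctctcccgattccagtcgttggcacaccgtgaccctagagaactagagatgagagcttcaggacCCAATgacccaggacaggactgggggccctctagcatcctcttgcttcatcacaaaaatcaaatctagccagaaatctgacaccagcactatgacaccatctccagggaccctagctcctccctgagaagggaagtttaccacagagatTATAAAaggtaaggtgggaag
No letters of the 4 motifs were found in the Mat1a window. The Ahcy window held a GC box at 121 and at 26 bases before the start, both as the reverse complement. The Bhmt window held a TATA box beginning 29 bases before the start and a CCAAT box at 161, and the Inmt window had them at 21 and 170. No match overlapped another. Among 33469 rat windows of the same length, 12.9% held the TATA box, 30.5% the GC box, 34.0% the CCAAT box and 5.59% the E-box. The matches are a description of the letters only, and a window without a match says nothing of the factors that bind it.

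Bhmt, the betaine-dependent remethylation enzyme, differed between groups in another order than Mat1a and Ahcy. Bhmt (ENSRNOG00000011200, chromosome 2, 23236575 to 23256158, minus strand) had 759.9, 740.5 and 749.9 FPKM in the obese control, against 1047, 1060 and 1052 FPKM in the normal control. The 2 groups did not overlap, and the ratio of their means was 0.712. With orlistat it had 876.4, 878.2 and 881.7 FPKM, which is 1.17 times the obese control. At the low dose it had 1067, 1074 and 1074 FPKM, at the medium dose 917.1, 919.2 and 906.5 FPKM and at the high dose 714.0, 711.6 and 707.2 FPKM. The level thus stepped down from low to high dose with no overlap between neighbouring doses. Relative to the obese control the means were 1.43 times as high at the low dose, 1.22 at the medium dose and 0.948 at the high dose. The last is a log2 difference of -0.08 on the deposited scale that turned to 0.10 as TPM and 0.002 with voom on the recovered reads, so its direction depends on the scaling. On the deposited scale the low-dose libraries also lay above the normal control, by 0.02 on the log2 scale. This turned to -0.06 as TPM and to -0.02 both with quantile normalization and with voom. A single scaling factor for a library does not change the ratio of Mat1a to Bhmt. This ratio was 1.09 ± 0.01 in the obese control, 0.961 ± 0.01 at the low dose, 1.06 ± 0.01 at the medium dose and 1.52 ± 0.01 at the high dose. It was 1.29 ± 0.02 with orlistat, and 1.09 ± 0.01 in the obese control, against 1.10 ± 0.01 in the normal control. On the deposited scale Mat1a and Bhmt therefore differed by nearly the same factor between the obese and the normal control. They differed by different factors under orlistat and at the high dose. With quantile normalization, which is not a single factor, obese against normal control gave -0.57 for Mat1a and -0.46 for Bhmt.

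Bhmt2, the neighbouring paralog of Bhmt (chromosome 2, 23272328 to 23289266, minus strand), known in human and mouse to use S-methylmethionine in place of betaine, was looked at after its values were seen. It had 229.1 ± 3.7 FPKM in the obese control, against 248.7 ± 3.4 FPKM in the normal control, a difference of -0.12 ± 0.02 (adjusted p = 3.36e-05). It was 232.6 ± 3.0 FPKM with orlistat, 226.9 ± 3.1 at the low dose, 237.7 ± 1.6 at the medium dose and 218.9 ± 2.3 FPKM at the high dose. The high dose was lower than the obese control (-0.07 ± 0.02, adjusted p = 0.00533), a call that turned to 0.11 as TPM (adjusted p = 0.000771). Orlistat was not called on the deposited scale (0.02 ± 0.02, adjusted p = 0.313) and was called higher as TPM (0.19, adjusted p = 4.96e-06) and with quantile normalization (0.22, adjusted p = 6.12e-08). The ratio of Bhmt to Bhmt2 was 3.28 ± 0.08 in the obese control, against 4.24 ± 0.04 in the normal control. It was 3.78 ± 0.04 with orlistat, 4.72 ± 0.07 at the low dose, 3.85 ± 0.05 at the medium dose and 3.25 ± 0.05 at the high dose. Reads that fit both genes cannot be told apart in the table, so a part of either level may belong to the other.

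**Figure D2:**
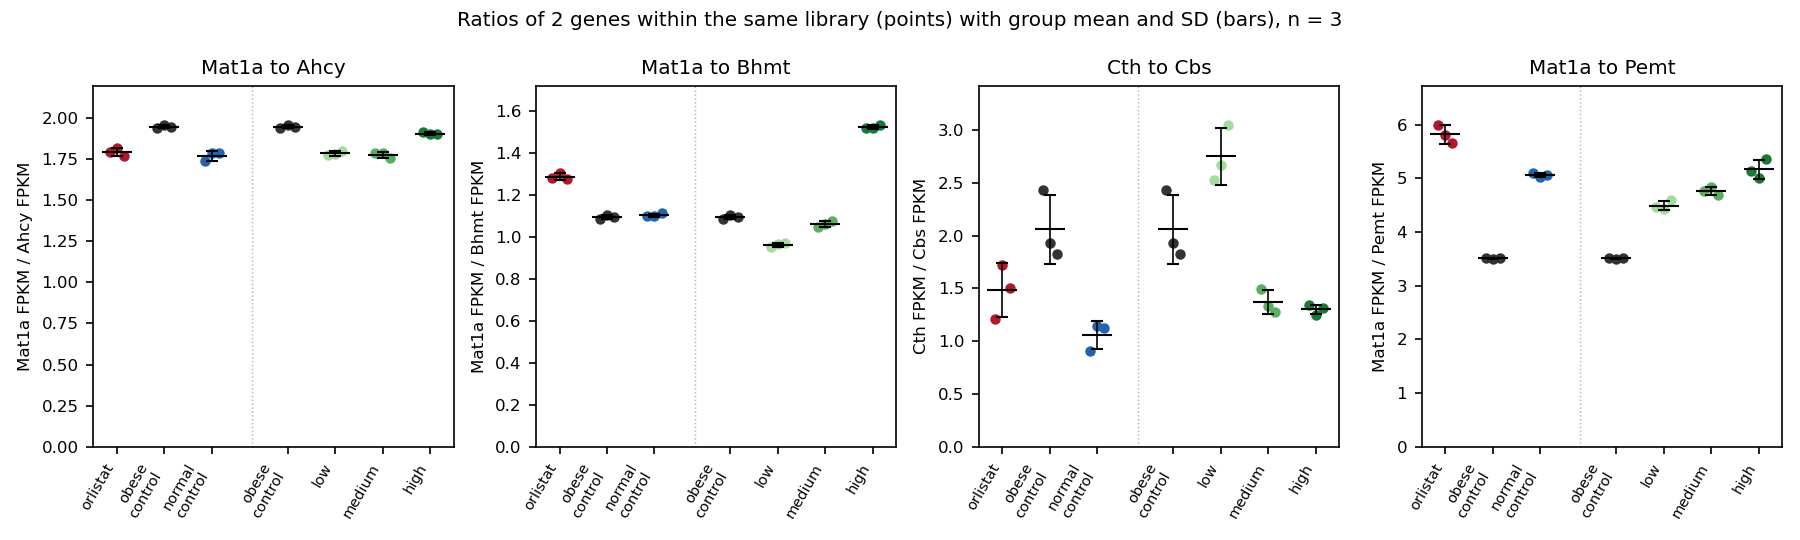
Ratios of FPKM between members in every library, with a point per library and bars for the mean ± SD of 3 libraries. Mat1a over Bhmt is highest at the high dose (1.52) and lowest at the low dose (0.961), and Cth over Cbs is highest at the low dose (2.75) and lowest in the normal control (1.06).

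Of the 3 methyltransferases, Gnmt, the glycine methyltransferase that disposes of surplus S-adenosylmethionine and is known as an abundant liver enzyme, was nearly absent from the table. Gnmt (ENSRNOG00000016349, chromosome 9, 16565225 to 16568627, plus strand) had 21 reads in all 18 libraries and was at 0 in 10 of them, including all 3 orlistat and all 3 obese control libraries. Its highest value was 0.609 FPKM, from 12 reads in replicate 2 of the low dose. A count of 0 allows up to 3 reads, or 0.137 to 0.162 FPKM in the orlistat libraries and 0.123 to 0.155 FPKM in the obese control libraries, counting error only. A second gene described as glycine N-methyltransferase-like, LOC100911564 on the same chromosome (16314173 to 16317413), had under 1 FPKM in 17 of 18 libraries and 9.87 FPKM in replicate 3 of the low dose. Reads of near-identical copies cannot be told apart in the table and Gnmt overlaps the gene Pex6, so the level of Gnmt is uncertain, and no comparison between groups was made.

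Pemt makes phosphatidylcholine by 3 successive methylations of phosphatidylethanolamine and is a large consumer of methyl groups in the liver. Pemt (ENSRNOG00000054423, chromosome 10, 46339821 to 46404642, minus strand) had 234.4, 233.5 and 233.6 FPKM in the obese control, against 225.5, 231.6 and 230.7 FPKM in the normal control. The libraries did not overlap, but the difference was 0.03 ± 0.03 (adjusted p = 0.373) and its sign turned to -0.10 as TPM (adjusted p = 0.00914, called lower), to -0.03 with quantile normalization and to -0.02 with voom. With orlistat Pemt had 186.8, 197.2 and 198.7 FPKM, below every obese control library, a difference of -0.27 ± 0.03 (adjusted p = 4.29e-07) that shrank to -0.10 as TPM. At the low dose it had 227.2, 234.0 and 226.9 FPKM, which overlapped the obese control (-0.03 ± 0.03, adjusted p = 0.449; 0.02 as TPM). The medium dose gave 201.4, 201.6 and 207.6 FPKM and the high dose 210.6, 215.4 and 202.7 FPKM. Both lay below the obese control, by -0.20 ± 0.03 (adjusted p = 1.47e-05) at the medium and -0.16 ± 0.03 (adjusted p = 0.000105) at the high dose, of which the value at the high dose turned to 0.02 as TPM and the value at the medium dose shrank to -0.11. At the high dose Pemt was lower as deposited, with quantile normalization (-0.07) and with voom (-0.08), but not as TPM. Under orlistat and at the medium dose it was lower under the 4 scalings run. Pemt and Mat1a differed unequally between the obese and the normal control, and the ratio of Mat1a to Pemt was 3.51 ± 0.01 in the obese control, against 5.06 ± 0.03 in the normal control. It was 5.82 ± 0.17 with orlistat, 4.49 ± 0.08 at the low dose, 4.76 ± 0.07 at the medium dose and 5.17 ± 0.17 at the high dose.

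Inmt is known from human and rabbit as an enzyme that methylates indolethylamines such as tryptamine. Inmt (ENSRNOG00000011250, chromosome 4, 85381889 to 85386231, minus strand) had 4.16, 3.41 and 4.47 FPKM in the obese control, against 40.9, 46.2 and 46.3 FPKM in the normal control. The groups did not overlap, and the mean of the obese control was 0.0902 of that of the normal control. Behind these levels stood 86, 89 and 99 reads in the obese control, against 1179, 1306 and 1354 reads in the normal control. With orlistat Inmt had 13.8, 12.3 and 16.1 FPKM, 3.50 times the obese control. It had 5.70, 6.61 and 6.83 FPKM at the low dose, 5.22, 4.90 and 4.63 FPKM at the medium dose and 14.4, 13.2 and 16.4 FPKM at the high dose. No library of a treated group overlapped the obese control, and the means were 1.59, 1.23 and 3.66 times the obese control from low to high dose. All 12 treated libraries lay below all 3 normal control libraries, at 0.316 of the normal control with orlistat, 0.144 at the low, 0.111 at the medium and 0.330 at the high dose. The orlistat and high-dose libraries overlapped each other. On the deposited scale the medium dose was the lowest dose for Inmt, Mat1a and Ahcy, the last with a change under quantile normalization, while Bhmt was lowest at the high dose.

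The 2 steps that lead homocysteine out of the cycle both had higher levels in the obese control than in the normal control. Cbs joins homocysteine with serine to cystathionine. Cbs (ENSRNOG00000029528, chromosome 20, 10361988 to 10386751, minus strand) had 98.85, 97.71 and 96.99 FPKM in the obese control, against 80.76, 81.05 and 82.16 FPKM in the normal control. The groups did not overlap and differed by 0.26 ± 0.02 (adjusted p = 7.75e-08), or 0.14 as TPM. With orlistat Cbs had 104.4, 103.3 and 107.1 FPKM, above every obese control library, a difference of 0.10 ± 0.02 (adjusted p = 0.00162) that was 0.27 as TPM. The doses gave 100.9, 100.1 and 98.1 FPKM (low), 98.34, 101.8 and 96.11 FPKM (medium) and 96.29, 98.76 and 95.94 FPKM (high), all overlapping the obese control. The differences from it were 0.03, 0.01 and -0.01 from low to high dose, each ± 0.02, with adjusted p-values of 0.407, 0.688 and 0.668. As TPM they were 0.07, 0.11 and 0.17, so a difference at the doses could not be told from the scaling. The medium dose was called higher as TPM (adjusted p = 0.0144), with quantile normalization (adjusted p = 0.0195) and with voom (adjusted p = 0.0365). The high dose was called higher as TPM (adjusted p = 0.000437) and with voom (adjusted p = 0.0427). The 3 doses were not called unequal by the F-test (adjusted p = 0.356). All 4 treated groups stayed above the normal control, by 0.36 with orlistat, 0.29 at the low, 0.28 at the medium and 0.25 at the high dose, each ± 0.02 (adjusted p at most 2.25e-07). Among the obese control and the 4 treated groups its means ran only from 96.99 to 104.9 FPKM on the deposited scale. As TPM they ran from 161.8 ± 1.6 in the obese control to 195.2 ± 6.8 with orlistat.

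Cth splits cystathionine into cysteine and can also release hydrogen sulfide. Cth (ENSRNOG00000010658, chromosome 2, 264266984 to 264293046, minus strand) had 240.4, 188.4 and 176.8 FPKM in the obese control, against 73.08, 93.06 and 92.19 FPKM in the normal control. Every obese control library was above every normal control library, with a ratio of means of 2.34 and a difference of 1.22 ± 0.13 (adjusted p = 1.12e-06). The low dose had 254.9, 267.6 and 299.3 FPKM, the medium dose 147.1, 135.7 and 122.7 FPKM and the high dose 129.1, 123.6 and 125.8 FPKM. Relative to the obese control, the low dose lay above it (0.45 ± 0.13, adjusted p = 0.0153), and the medium dose (-0.57 ± 0.13, adjusted p = 0.00262) and the high dose (-0.66 ± 0.13, adjusted p = 0.000576) lay below it, each without overlap. The call at the low dose was lost without replicate 3 of the low dose (0.38) and without replicate 2 (0.40) or replicate 3 (0.36) of the obese control. With orlistat Cth had 126.5, 178.0 and 161.5 FPKM, which overlapped the obese control (-0.38 ± 0.13, adjusted p = 0.0247). That call was lost without replicate 1 of the orlistat group (-0.24), without replicate 1 of the obese control (-0.24), as TPM (-0.21), with quantile normalization (-0.25), with no filter on low values and with only these 2 groups in the fit. The doses were unequal by the F-test (adjusted p = 1.01e-05), with medium against low dose at -1.01 ± 0.13 (adjusted p = 3.28e-05) and high against medium dose at -0.09 ± 0.13 (adjusted p = 0.675). The low dose thus stood apart from the other doses, which did not differ beyond their spread. All treated groups stayed above the normal control, by 0.84 with orlistat, 1.66 at the low, 0.65 at the medium and 0.55 at the high dose, each ± 0.13 (adjusted p at most 0.00297). The ratio of Cth to Cbs was 2.06 ± 0.33 in the obese control, against 1.06 ± 0.13 in the normal control. It was 1.48 ± 0.26 with orlistat, 2.75 ± 0.27 at the low dose, 1.37 ± 0.11 at the medium dose and 1.30 ± 0.04 at the high dose. A second gene described as cystathionine gamma-lyase, LOC103691744 on the same chromosome (264746485 to 264765085), had a mean of 0.116 to 0.737 FPKM in each group. Reads that fit both genes cannot be told apart, so the level of Cth is uncertain.

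**Figure D3:**
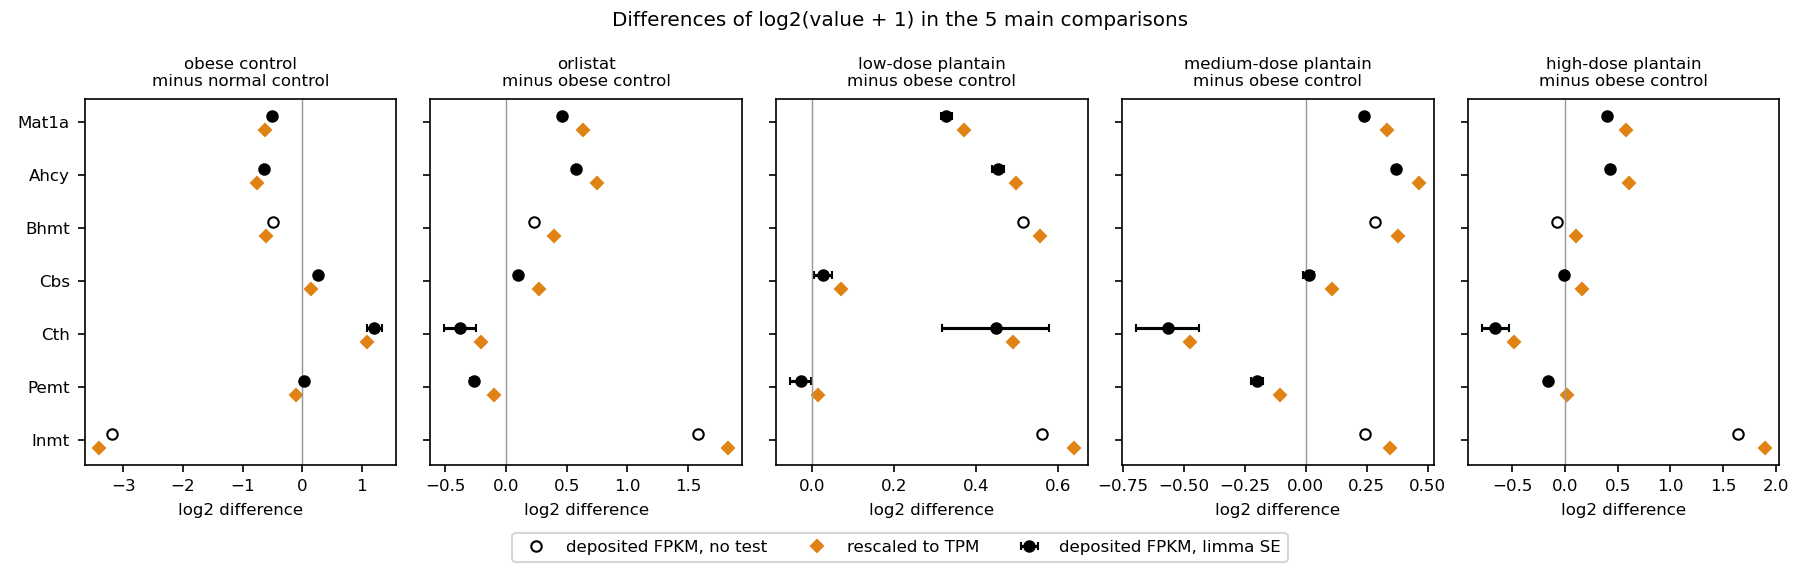
Log2 differences of FPKM + 1 of the members in the comparisons with the normal control and with the obese control; filled circles with bars are the 5 tested members on the deposited scale with limma standard errors, open circles are Bhmt and Inmt with no test, diamonds are the same differences as TPM, and the panels have their own horizontal scales. Mat1a and Ahcy are below 0 in the obese control against the normal control and above 0 in the 4 treatment comparisons, while Cth is above 0 at the low dose and below 0 at the medium and high dose; as TPM the sign changes for Bhmt, Cbs and Pemt at the high dose and for Pemt at the low dose and in the obese control against the normal control.

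Cth moved with the markers of Kupffer cells and macrophages, the resident phagocytes of the liver. Their 10 listed markers, which include Cd68 and Clec4f, were all detected in every library, and their summed level was 314 to 324 FPKM in the obese control, against 187 to 189 FPKM in the normal control. It was 328 to 348 FPKM with orlistat, 398 to 408 FPKM at the low dose, 260 to 268 FPKM at the medium dose and 265 to 270 FPKM at the high dose. Of the 10 markers, 10 were higher in the obese control than in the normal control, and against the obese control 9 rose at the low dose, 9 fell at the medium dose and 8 fell at the high dose. As TPM 9 rose at the low dose, 7 fell at the medium dose, and at the high dose 4 fell and 1 rose. With orlistat 3 rose and 1 fell, or 7 rose and 0 fell as TPM, beside a lower mean of Cth. Over the 18 libraries the Pearson correlation of Cth with the summed markers was 0.917, a description of 6 groups of 3 libraries that share their group differences and their scaling. Whether the macrophage content has a part in the level of Cth was not tested.

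**Figure D4:**
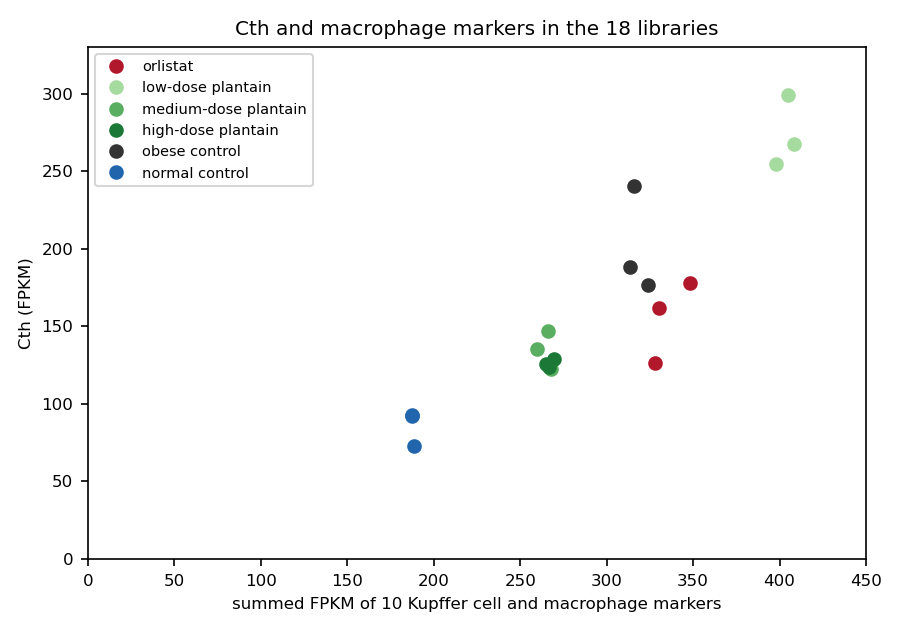
Cth FPKM against the summed FPKM of 10 Kupffer cell and macrophage markers, with a point for each of the 18 libraries in the colour of its group. The normal control libraries lie lowest on both axes (187 to 189 FPKM of markers) and the low-dose libraries highest (398 to 408 FPKM); the orlistat libraries have a higher marker sum than the obese control and a lower mean Cth (155.3 FPKM, against 201.9 FPKM).

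Ordered by level on the deposited scale, the groups took a different order for each gene. Mat1a ran from the normal control over orlistat, high, low and medium dose to the obese control, and each neighbour in that order differed from the next by limma with no overlap, the pair of orlistat and the normal control with the change of sign given above. Ahcy had the same ends, and only the low and high dose were not told apart among its neighbours (adjusted p = 0.225), and quantile normalization turned the order of its low and medium dose. For Cth the order was low dose, obese control, orlistat, medium dose, high dose and normal control, in which orlistat against the medium dose (adjusted p = 0.319) and the high against the medium dose did not differ beyond their spread. Pemt was highest in the obese control, the low dose and the normal control, which were not told apart from their neighbours (adjusted p = 0.449 and 0.987), followed by the high dose, the medium dose and orlistat, the last 2 of which exchanged places as TPM. As TPM the order at the top was another one, with 413.1 ± 3.1 in the normal control, 392.2 ± 12.7 at the high dose, 390.5 ± 2.9 at the low dose and 386.6 ± 3.3 in the obese control. For Cbs only the ends stood apart, orlistat above the low dose (adjusted p = 0.0185) and the high dose above the normal control (adjusted p = 2.25e-07). Inmt was highest in the normal control, followed by the high dose and orlistat, which overlapped, then the low dose, the medium dose and the obese control, none of which overlapped its neighbour. Over the 10 pairs of groups other than the 5 above, 40 of 50 tests of these 5 genes passed, beside 33.4% of all tests in those pairs.

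The libraries of a group lay close together for most members. The pooled SD within groups on the log2 scale was 0.0103 for Bhmt, 0.0134 for Mat1a, 0.0141 for Ahcy, 0.0248 for Cbs and 0.0315 for Pemt, against a median of 0.0834 over all tested genes. It was 0.136 for Inmt and 0.177 for Cth. Cth was therefore the abundant member with the least even replicates, and its calls are the ones that single libraries decided. Across the 18 libraries Mat1a and Ahcy had a Pearson correlation of 0.98, Mat1a and Inmt 0.83, Ahcy and Inmt 0.77, Cbs and Cth 0.65, and Bhmt and Mat1a 0.42, all of which rest on 6 group levels and a shared scaling. By the same measure over 9856 protein-coding genes with a symbol, the genes most like Mat1a were Pik3c2g (0.977), Ahcy (0.976) and Ipo5 (0.975), and those most like Ahcy were Sult1a1 (0.989), Mat1a and Prodh1 (0.968). The genes most like Bhmt were Nfatc4 (0.944), Fah (0.931) and Hamp (0.920). For Inmt they were Arhgap5 (0.975), Ivns1abp (0.972) and Arih1 (0.964), and for Cbs Dsc2 (0.964), Hal (0.951) and Stat3 (0.949). For Pemt the nearest were the ribosomal protein genes Rplp1 (0.962), Rpl10 (0.950) and Rps20 (0.937). For Cth they were Adgre1 (0.936) and Cd68 (0.936), both macrophage markers, and Gtse1 (0.921).

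Around the 8 genes stand 89 listed genes of remethylation, betaine oxidation, folate metabolism, sulfur handling, small-molecule methylation, polyamines and phosphatidylcholine synthesis, of which 82 were tested. In the obese control against the normal control 24 were higher and 40 lower, beside 26.7% and 28.4% of all genes. Their median log2 difference was -0.09, beside a median of 0 over all tested genes. As TPM 15 were higher and 48 lower, beside 54.8% of all genes called. With orlistat 33 rose and 24 fell against the obese control, beside 26.2% and 25.6% of all genes (52 and 12 as TPM, beside 54.9% called). The low dose had 25 higher and 13 lower, beside 18.3% and 14.8% (31 and 9 as TPM, beside 33.3% called). The medium dose had 28 and 18, beside 21.8% and 20.1% (46 and 11 as TPM, beside 43.4% called). The high dose had 33 and 22, beside 26.6% and 25.3% (52 and 10 as TPM, beside 55.7% called). The lists were chosen with earlier results of these data known, and their directions move with the scaling as the table as a whole does. The same shares of all genes stand beside the counts by list below and by marker list above, comparison by comparison.

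By list, the obese control against the normal control had 1 gene higher and 8 lower of 12 in the remethylation list, and 3 higher and 5 lower of 8 in betaine and sarcosine oxidation. Chdh, which makes betaine aldehyde from choline, had 53.0 ± 0.8 FPKM in the obese control, against 123.4 ± 0.3 FPKM in the normal control (-1.20 ± 0.03, adjusted p = 3.04e-14). Sardh, which oxidizes the sarcosine that Gnmt makes, had 91.7 ± 1.2 FPKM with orlistat, against 47.9 ± 0.7 FPKM in the obese control (0.92 ± 0.03, adjusted p = 1.41e-12). Both are enzymes next to Bhmt and Gnmt in the route of betaine and its products. In the folate list 4 were higher and 6 lower of 16 in the obese control against the normal control, with a median of -0.02 that turned to 0.005 with quantile normalization. As TPM the folate list had 2 higher and 9 lower.

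In the sulfur handling list 3 were higher and 9 lower of 13 in the obese control against the normal control. Gclm, the modifier subunit of the first enzyme of glutathione synthesis, had 114.9 ± 0.1 FPKM at the high dose, against 55.7 ± 1.2 FPKM in the obese control (1.03 ± 0.02, adjusted p = 1.28e-13). Of 13 small-molecule methyltransferases and related genes, 5 were higher and 6 lower in the obese control than in the normal control, or 3 and 8 as TPM. Mettl7b, whose human counterpart encodes a thiol methyltransferase, had 69.5 ± 1.6 FPKM in the obese control, against 179.6 ± 6.1 FPKM in the normal control (-1.36 ± 0.04, adjusted p = 7.99e-14). It had 142.0 ± 1.0 FPKM at the low dose (1.02 ± 0.04, adjusted p = 1.51e-11) and 119.9 ± 5.8 FPKM at the medium dose (0.78 ± 0.04, adjusted p = 2.07e-10), both compared with the obese control. Mettl7b was thus lower in the obese control on both sides, like Mat1a and Ahcy.

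In the phosphatidylcholine route parallel to Pemt, choline kinase transcripts were higher in the obese control than in all other groups. Chka, a choline kinase and the first step of that route, had 25.0, 23.8 and 24.9 FPKM in the obese control, against 5.76, 6.14 and 6.50 FPKM in the normal control (1.84 ± 0.05, adjusted p = 7.38e-14). With orlistat it had 6.86, 6.34 and 6.12 FPKM, a difference from the obese control of -1.78 ± 0.05 (adjusted p = 3.6e-13). The doses gave means of 11.4 ± 0.1, 6.11 ± 0.40 and 7.05 ± 0.30 FPKM from low to high, with differences of -1.04, -1.85 and -1.67, each ± 0.05 (adjusted p at most 3.62e-10). All 15 other libraries lay below the 3 obese control libraries. Chkb, the second choline kinase, had 4.95 ± 0.13 FPKM with orlistat, against 10.3 ± 0.6 FPKM in the obese control (-0.92 ± 0.08, adjusted p = 1.9e-07). In this list 3 were higher and 3 lower of 9 in the obese control against the normal control, and 3 rose and 3 fell with orlistat against the obese control. As TPM 2 were higher and 6 lower in the obese control, and 5 rose and 3 fell with orlistat. In the polyamine and salvage list 5 were higher and 3 lower of 11 in the obese control against the normal control, or 3 and 3 as TPM. Srm, spermidine synthase, had 0.356, 0.118 and 0.098 FPKM at the high dose, against 9.10, 0.426 and 19.1 FPKM in the obese control (-2.48 ± 0.82, adjusted p = 0.0197). The obese control libraries of Srm were far apart, and that call was lost without replicate 1 (-2.17) or replicate 3 (-1.68) of the obese control, with only these 2 groups in the fit (adjusted p = 0.0569) and with voom (adjusted p = 0.252).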

How the data were processed

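The authors deposited 1 table of FPKM for 33657 genes in 18 libraries, with symbols, lengths and coordinates per the file headers. CASAVA 1.7, Bowtie 0.12.2 and the mouse build mm8 are named in the submitters' processing notes, while the identifiers are rat Ensembl ones. No rat build, annotation release or strand setting was given in the sources used here. Multiplied by gene length, the FPKM of a library came out as whole multiples of 1 read for 100% of genes (tolerance 0.001), so whole reads were recovered. The authors' scaling total was 0.9661 to 1.0468 times the recovered total. Interval and floor values cover counting error only.

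Groups came from the labels, and members from the file's symbols (8 of 8). Genes with 1 FPKM or more in 3 libraries or more were compared as log2(FPKM + 1) with limma 3.58.1 (R 4.3.3), with a mean-variance trend, all 6 groups in 1 fit, two-sided tests, and Benjamini-Hochberg adjustment over 11945 genes at 0.05. With 3 against 3 libraries an exact permutation test cannot go below 0.1. The script was tested on simulated data. The members and lists were chosen with earlier results of these data known. Genes of the wider lists were named by rule: in each comparison the 3 largest differences among those past the threshold with no overlap, and Bhmt2 after its values were seen. A gene that the rule also named is not reported here. The genes most like a member were the 3 with the highest correlation over 18 libraries. Alternatives were another pseudocount, 2 other filters, TPM, quantile normalization, no trend, only the groups compared, a replicate block, voom on recovered reads and each library left out. Promoters came from RefSeq (GRCr8) by symbol, since the reference table matched 0 of the Ensembl identifiers.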

Additional observations from a re-analysis of the deposited data

How the results depend on the processing

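The number of tested members past the threshold stayed within 1.5 times the reported one under every alternative run. Leaving out 1 library at a time gave 4 to 4 for the obese control against the normal control, 4 to 5 for orlistat, 2 to 3 for the low dose, 4 to 4 for the medium and for the high dose, 4 to 4 for the F-test of doses and 39 to 41 of 50 for the other pairs. With the replicate number as a block the counts were 4, 5, 3, 4 and 4 in the order of the comparisons above, 4 for the F-test and 40 for the other pairs. Libraries with the same number did not deviate together (correlations of -0.092 to 0.066 over 45 pairs), so the numbers do not pair them. Of 945 log2 differences of members under alternatives, 901 were rated as unchanged, 12 changed sign, 9 lost their call and 3 gained one. For a tested member unchanged means the same direction and call. Bhmt and Inmt have no call, and for them it means a shift below the larger SD of the 2 groups. The other 20 differences, all of Bhmt or Inmt, kept their sign and moved by more than that. As TPM, Pemt turned to -0.095 (obese control against normal control), 0.015 (low dose) and 0.02 (high dose), Bhmt to 0.101 and Cbs to 0.165 (both high dose). Quantile normalization turned Pemt to -0.033 (obese control against normal control) and 0.002 (low dose) and Cbs to 0.051 (high dose). Voom turned Pemt to -0.021 (obese control against normal control), and Bhmt to 0.002 and Cbs to 0.067 at the high dose. Leaving out 1 library at a time, Cbs at the medium dose ran from -0.009 to 0.032. Cbs at the medium dose was called as TPM (0.107), with quantile normalization (0.066) and with voom (0.07), and at the high dose as TPM and with voom. The cause of these changes was not tested. A fit of only the groups compared was not run for the other 10 pairs. Inmt in the obese control rests on 86 to 99 reads a library, and Gnmt on 0 to 12.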
